A study of Mus musculus with 9 samples.

Results

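The genes described here are 37 genes of DNA replication and S phase, chosen by name for what their proteins do and measured in single cells of mouse bone marrow. They are 37 of the 15265 genes in the deposited tables, each was listed in all 9 libraries, and together they held 23681 counts in the cells kept. They fall into 5 roles: licensing of replication origins, firing of origins and the moving fork, DNA synthesis with maturation of Okazaki fragments, supply of nucleotides, and copying and repair of chromatin.

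Marrow of C57BL/6 mice at an age of 2 to 3 weeks was taken whole and profiled by Drop-seq, in which single cells are caught in droplets with barcoded beads. Of the 9 libraries, 5 came from NG2-cre/Pot1a wt/wt mice and 4 from NG2-cre/Pot1a fl/fl mice. Both groups carry the NG2-cre transgene, in which the promoter of the proteoglycan NG2 (Cspg4) drives Cre in mesenchymal and pericyte-type cells, and the fl/fl mice carry in addition a floxed Pot1a, which encodes a protein that binds telomeric DNA. The deletion is thus directed at cells of the niche, while the cells described here are mostly blood cells. Mesenchymal-like cells were named in 7 of 21 clusterings, as 16 to 18 of the 899 cells kept, and no stage of them was held by most clusterings. The labels do not say which mouse gave which library, and the study's legend gives fewer mice than libraries, so a p-value measures the spread between libraries and is too small where libraries share a mouse.

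Each library held 100 barcodes, of which 899 of 900 passed the filters, and its total ran from 119459 counts in Pot1a fl/fl 3 to 465277 in Pot1a fl/fl 1. The libraries Pot1a wt/wt 2 and 3 shared 19 barcodes, whose counts correlated at 0.961 to 0.999 across genes between the 2 libraries, and no other pair shared any. Both libraries are counted in each n and in counts such as 9 of 9, so these are not fully separate samples, and calls that change when both are summed as 1 library are given beside the result. The targeted gene, Pot1a, had between 1 and 15 counts per library, too few to check the labels in cells that the transgene is not meant to hit. Cells were sorted into stages by clustering them 21 times, with the libraries in other orders and other random seeds, and a cell took the stage that most clusterings gave it. The 37 genes, other replication genes, cell division genes and histones were kept out of the genes that built the clusters, and each cluster was named from marker genes. A stage name here means that the cells resembled that stage. Single clusterings gave 78.64 to 96.55% of cells the majority stage. Read with its own marker counts alone, a cell fell into the same stage in 96.15% of promyelocyte-like and 72.39% of intermediate erythroblast-like cells. The share was 67.01% in early erythroid-like, 61.36% in late neutrophil-like and 56.72% in pre-B and immature B-like cells. A globin-rich erythroblast-like stage was named in 8 of the 21 clusterings and was not held by the majority, and the 50 leading genes of the intermediate stage held 13 of its own markers and 7 globin-rich ones.

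A cell that is to divide first loads the MCM helicase (Mcm2 to Mcm7) on its origins with the help of Cdc6 and Cdt1. Cyclin E, Cdc45 and the GINS complex then turn the helicase on, polymerase alpha and primase start each strand, the sliding clamp PCNA holds the polymerases on DNA, and ribonucleotide reductase and thymidine kinase supply the building blocks. Many of these genes are transcribed together by E2F factors as cells pass from G1 into S phase. In marrow, early precursors of red cells, neutrophils and B cells divide many times, while late neutrophils have left the cell cycle.

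The promoters of the genes were read for the short motif TTTNNCGC, which covers the core of an E2F site, on both strands. RefSeq promoters (GRCm38.p6) were at hand for 30 of the 37 genes, and the motif lay in the 250 bases upstream of the start in 8 of them (26.7%), against 4.94% of 27025 genes. With the 50 bases after the start included, 13 of 30 (43.3%) held it, against 5.93%. CCAAT, the core of an NF-Y site, was found upstream in 18 of 30 (60%) against 37.5%, and both motifs in 6 of 30 (20%) against 2.10%. A match of letters is a description, not a site at which a factor is known to bind. Windows of 60 bases around the motif are shown for 3 genes, Mcm5 and Mcm6 of the helicase and Uhrf1, a partner of the maintenance methyltransferase, with the motif in capitals and each on its gene's strand. They lie at chr8:75109340-75109399 (plus strand), chr1:128359713-128359772 (minus strand) and chr17:56303261-56303320 (plus strand) of GRCm38.p6, in each case upstream of the gene. In Mcm5 the capitals cover matches on both strands that overlap.
Mcm5: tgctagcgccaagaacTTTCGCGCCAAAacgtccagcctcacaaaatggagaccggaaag
Mcm6: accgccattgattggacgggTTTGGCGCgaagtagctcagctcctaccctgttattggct
Uhrf1: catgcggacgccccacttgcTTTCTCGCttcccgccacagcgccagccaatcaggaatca

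Of all stages, the intermediate erythroblast-like cells had the largest share of their counts from the 37 genes. Their 163 cells gave 16.19% of all counts but 27.8% of the counts of the 37 genes. The 37 genes made up 1.452% ± 0.348 of the counts of a library there (SD, n = 9 libraries). Pre-B and immature B-like cells (1.037% ± 0.268, n = 9), pro-B-like cells (1.008% ± 0.178, n = 9) and early erythroid-like cells (0.894% ± 0.202, n = 9) followed, and these 3 lay within their spread of each other. Promyelocyte-like cells held 0.746% ± 0.183 (n = 8 libraries with at least 5 such cells), monocyte and macrophage-like cells 0.562% ± 0.119 (n = 8) and myelocyte-like cells 0.435% ± 0.125 (n = 9). At each step of this order the libraries of neighbouring stages overlapped, except at the last. Late neutrophil-like cells were lowest, at 0.0965% ± 0.0553 in the 4 libraries that held enough of them, and their 44 cells gave 2.662% of all counts and 0.3674% of the counts of the 37 genes. These are shares, not amounts per cell. In raw totals the 163 intermediate erythroblast-like cells held 6583 counts of the 37 genes. The 97 early erythroid-like cells, at a higher median depth per cell, held 4167.

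**Figure D1:**
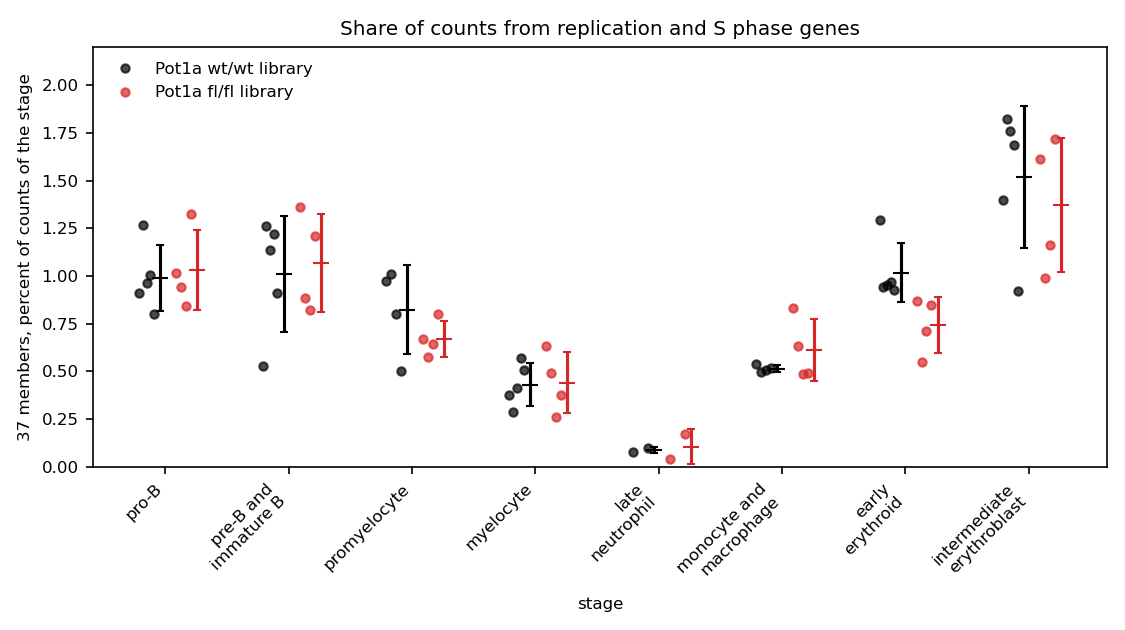
Percent of a library's counts in a stage that came from the 37 genes, by stage; each point is 1 library (black, Pot1a wt/wt; red, Pot1a fl/fl), with bars at the mean ± SD. Intermediate erythroblast-like cells lay at 0.920% to 1.825% and late neutrophil-like cells at 0.0392% to 0.171%, with no overlap between them.

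Gene by gene the same stages stood out. Of the 37 genes, 25 had their highest mean level (CPM, the counts of a gene per 1000000 counts) in intermediate erythroblast-like cells, 5 in pro-B-like cells, 3 in pre-B and immature B-like cells, 2 in promyelocyte-like cells, 1 in monocyte and macrophage-like cells and 1 in early erythroid-like cells. Of the 8 licensing genes 7 were among the 25, and the other, Mcm5, was highest in promyelocyte-like cells. The 5 genes highest in pro-B-like cells were Gins2, a subunit of the helicase activator GINS, the histone chaperone Nasp, the maintenance DNA methyltransferase Dnmt1, Ung, which removes uracil from DNA, and Usp1, which takes ubiquitin off PCNA. Those highest in pre-B and immature B-like cells were Dut, which breaks down dUTP, Uhrf1, which brings Dnmt1 to newly copied DNA, and Hells, a chromatin remodeller of the SNF2 family. Ung was the least counted gene of the 37, with 48 counts in all. In 33 of 37 genes the lowest mean was in late neutrophil-like cells. The stage of the highest or lowest mean was not counted over all genes. A lower fitted level in late neutrophil-like than in promyelocyte-like cells was common, in 6307 of 8045 genes tested and 36 of the 37.

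**Figure D2:**
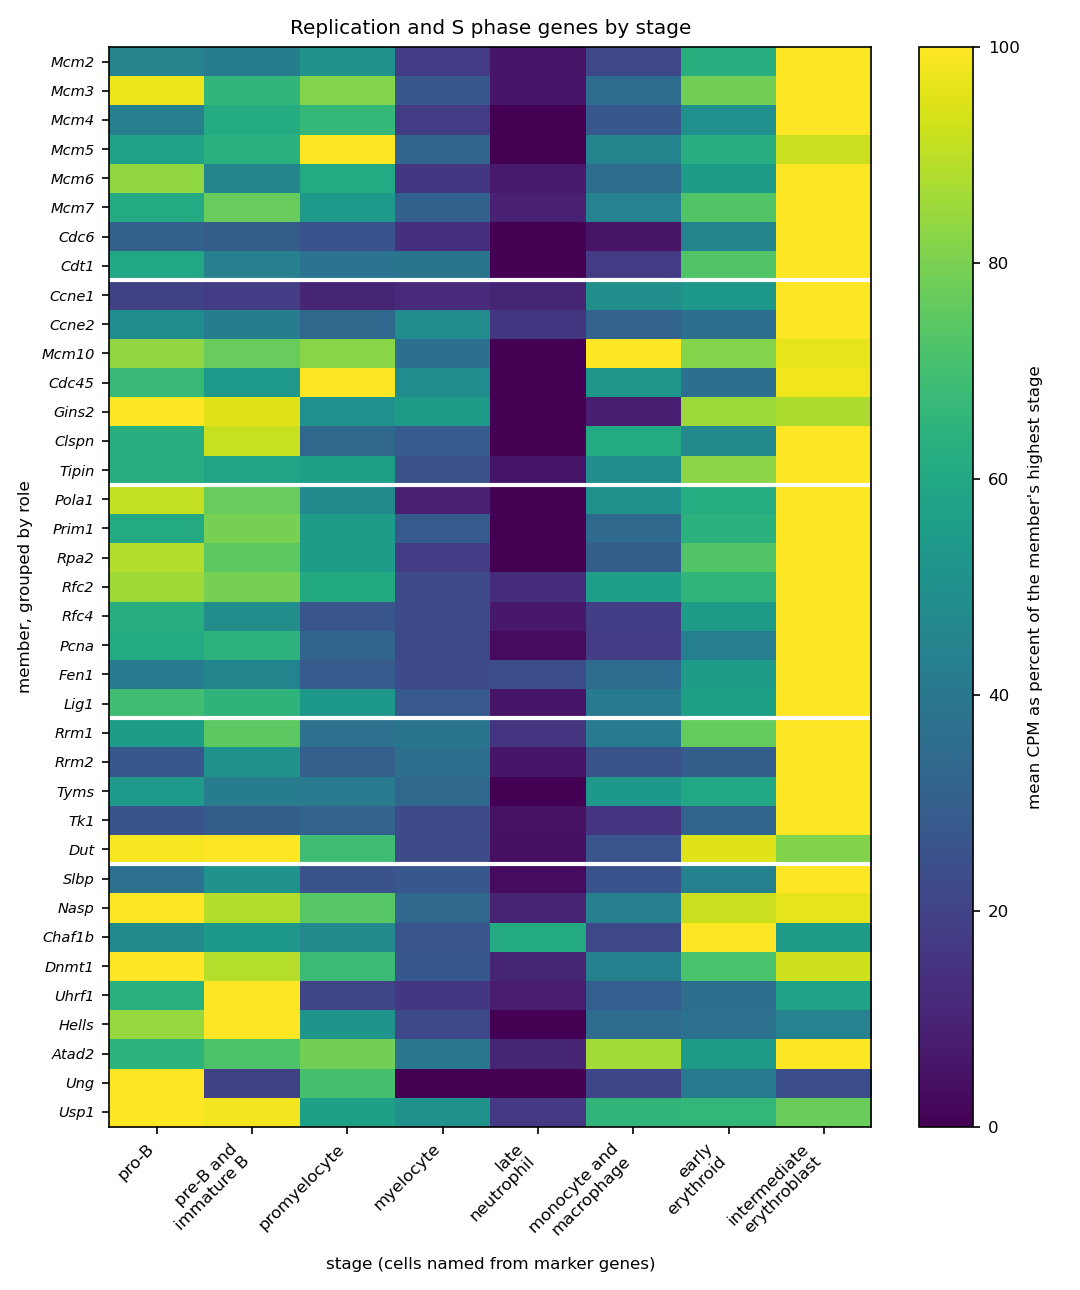
Mean CPM over libraries of each of the 37 genes (grouped by role, top to bottom: licensing, firing and fork, synthesis, nucleotide supply, chromatin) in 8 stages, as a percentage of that gene's highest stage. The intermediate erythroblast column holds the highest value for 25 of 37 genes, and the late neutrophil column the lowest for 33. Neither was counted over all genes.

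Cells differ in depth, so each cell was also thinned to 500 counts. At that depth the median cell held 7 counts of the 37 genes in the intermediate erythroblast-like stage, 5 in pro-B-like cells, 4 in pre-B and immature B-like and in early erythroid-like cells, 3 in promyelocyte-like cells, 2 in myelocyte-like and monocyte-like cells and 0 in late neutrophil-like cells. Cells with at least 5 such counts made up 73.46% of 162 intermediate erythroblast-like cells, 60% of 95 pro-B-like cells, 48.46% of 130 pre-B and immature B-like cells, 47.31% of 93 early erythroid-like cells, 25.64% of 78 promyelocyte-like cells, 16.13% of 155 myelocyte-like cells and 2.273% of 44 late neutrophil-like cells (1 cell). In the intermediate stage this share ran from 33.33% to 95.65% over libraries. At least 1 count of Mcm2 to Mcm7 was found in 51.85% of the intermediate erythroblast-like cells (95% Clopper-Pearson interval 43.88 to 59.76%), in 41.03% of promyelocyte-like cells (30.01 to 52.75%), in 38.95% of pro-B-like cells (29.11 to 49.5%) and in 6.818% of the late neutrophil-like cells (1.429 to 18.66%). Free RNA in the droplets gives some counts to any cell. The late neutrophil-like value stands here as the level in a stage named after cells that should lack these transcripts. Its median depth was 1470 counts per cell before thinning, against 2362 in the 162 intermediate cells deep enough to be thinned. By their own markers 15 of the 44 late neutrophil-like cells read as myelocyte-like, and their part in this level was not tested. Intervals cover counting error only.

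**Figure D3:**
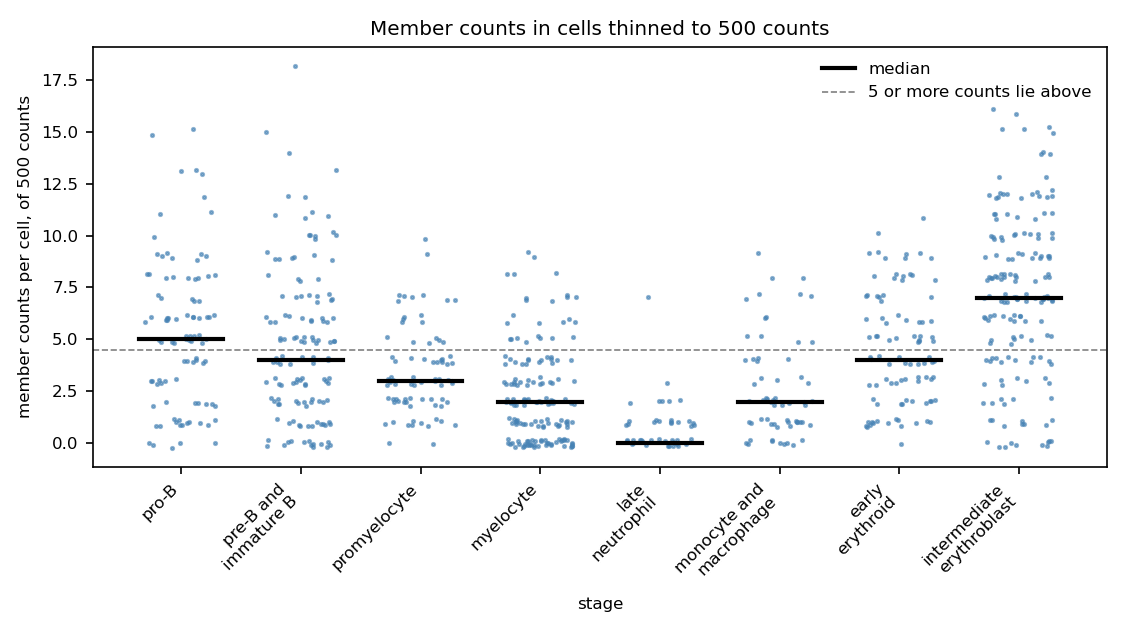
Counts of the 37 genes in each cell after thinning to 500 counts, by stage; points are cells, moved slightly to show them apart, black bars are medians, and cells above the broken line hold 5 or more. The medians run from 0 in late neutrophil-like to 7 in intermediate erythroblast-like cells.

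Cells with transcripts of the helicase were mostly also richer in the other genes. In pre-B and immature B-like cells, those with a count of Mcm2 to Mcm7 held a mean of 6.05 counts of the other members, against 3.62 in those with none, and the first mean was higher in 7 of the 7 libraries that could be compared. Intermediate erythroblast-like cells gave 7.10 against 5.37, higher in 7 of 8 libraries, and pro-B-like cells 5.60 against 4.09, higher in 6 of 8. In promyelocyte-like cells the means were 2.94 and 2.91, with the first higher in 3 of 7 libraries. These are descriptions of cells that share a library, at 500 counts per cell.

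Along the erythroid stages, 19 of the 37 genes rose from early erythroid-like to intermediate erythroblast-like cells and none was called lower. Counts were summed per library and stage and tested with edgeR's quasi-likelihood test over 8045 genes, with the library as a block, and a gene was called at an adjusted p under 0.05. Over all genes tested, 6.41% were called higher in the intermediate stage and 6.82% lower. Called or not, 34 of the 37 genes had a higher fitted level in the intermediate stage. The median log2 difference, intermediate minus early, was 0.92 over the 37 genes and -0.11 over all genes. The 19 comprised Mcm2, Mcm4, Mcm6, Mcm7 and Cdc6 of the licensing genes, Ccne1, Ccne2 and Clspn of the firing and fork genes, Pola1, Prim1, Rfc4, Pcna and Lig1 of the synthesis genes, Rrm2, Tyms and Tk1 of the nucleotide genes, and Slbp, Uhrf1 and Atad2 of the chromatin genes. Sums of at least 10 cells gave 9 calls, all among the 19. Taking the stage of each cell from its own markers gave 22 calls, with 16 of the 19 among them, and Mcm6, Pola1 and Tyms were lost. The call of Tyms was also lost without Pot1a fl/fl 1. With Pot1a wt/wt 2 and 3 summed as 1 library the calls of Mcm7 and Uhrf1 were lost, which left 17.

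The 2 largest differences were those of nucleotide genes. Rrm2, the S phase subunit of ribonucleotide reductase, ran from 175.1 through a median of 231.7 to 363.6 CPM over 9 libraries in early erythroid-like cells, and from 588.8 through 783.8 to 1150 CPM over 9 libraries in intermediate erythroblast-like cells. The ranges did not overlap, and the fitted level rose by 1.90 ± 0.24 on the log2 scale (SE, adjusted p = 4.07e-12, edgeR). Tk1, the thymidine kinase of cycling cells, ran from 0 through 146.6 to 303 CPM and then from 224.3 through 444.2 to 739.1 CPM (log2 difference 1.77 ± 0.29, adjusted p = 1.58e-07, edgeR). Its ranges overlap, and the level was higher in the intermediate stage in 9 of 9 libraries. Rrm1, the large subunit of the same reductase, was higher in the intermediate stage in 7 of 9 libraries (0.61 ± 0.26) and was not called. Dut had 470.4 ± 190.9 CPM in the early and 401.4 ± 120.1 CPM in the intermediate stage (n = 9 each), a difference within its spread.

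Among the licensing genes, Cdc6, which loads the helicase, ran from 45.45 through 92.67 to 132.1 CPM in the early stage and from 116.9 through 188.3 to 280.4 CPM in the intermediate stage (log2 difference 1.30 ± 0.37, adjusted p = 0.00701, edgeR). It was higher in 9 of 9 libraries. Mcm4, a subunit of the helicase ring, ran from 70.04 through 154.2 to 303 CPM and from 84.12 through 319.1 to 472.2 CPM (1.26 ± 0.30), and the ranges overlap. Mcm2, Mcm6 and Mcm7 were called as well, at 0.70 to 0.92, while Mcm3, Mcm5 and Cdt1 were not. The calls of Mcm2, Mcm6 and Mcm7 were each lost under several alternatives. Mcm6 was lost, among others, with doublets removed, with stages from own markers and without Pot1a wt/wt 5. Mcm2 was lost, among others, without Pot1a wt/wt 2, and Mcm7 with the libraries sharing barcodes summed.

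Of the firing and fork genes, Ccne2 and Ccne1 encode the E cyclins that pair with Cdk2. Ccne2 ran from 35.02 through 132.4 to 219.9 CPM in the early stage and from 252.4 through 336.4 to 696.9 CPM in the intermediate stage, so its ranges lay apart (1.57 ± 0.30). Ccne1 ran from 0 through 114.2 to 242.4 CPM and from 100.2 through 204.5 to 319.8 CPM (1.14 ± 0.37, adjusted p = 0.023, edgeR), higher in the intermediate stage in 7 of 9 libraries. Its call was lost, among others, with library totals, without Pot1a wt/wt 4 and without fl/fl 3. Clspn, which passes on replication stress signals, ran from 70.04 through 254.6 to 409.1 CPM and from 140.2 through 574.4 to 772.2 CPM (1.24 ± 0.26), higher in 8 of 9.

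Pcna, the sliding clamp, ran from 315.2 through 818.1 to 1455 CPM in the early stage and from 510.6 through 2060 to 2589 CPM in the intermediate stage (1.43 ± 0.21, adjusted p = 1.14e-09, edgeR). It was higher in 9 of 9 libraries, and the lowest intermediate value was that of Pot1a fl/fl 3. Lig1, which seals Okazaki fragments, rose by 1.08 ± 0.21, and Rfc4, Prim1 and Pola1 by 0.98 to 1.12. The call of Pola1 was lost, among others, with stages from own markers and without Pot1a wt/wt 1 or wt/wt 2. Fen1, the flap nuclease of Okazaki fragments, was higher in 9 of 9 libraries but was not called (0.93 ± 0.35, adjusted p = 0.0547, edgeR).

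Of the chromatin genes, Slbp, which binds the stem-loop of histone mRNA, ran from 139 through 276 to 545.5 CPM and from 350.8 through 715.4 to 852 CPM (1.43 ± 0.24), higher in 9 of 9 libraries. Atad2, a bromodomain ATPase, ran from 105.1 through 181.8 to 330.9 CPM and from 63.82 through 408.9 to 780.1 CPM (1.16 ± 0.27), higher in 7 of 9. Uhrf1 had a log2 difference of 1.07 ± 0.36, a call that was likewise lost with Pot1a wt/wt 2 and 3 summed. Nasp, the most counted gene of the 37, had 1124 ± 327.5 CPM in the early and 1175 ± 705.2 CPM in the intermediate stage without being called. In the intermediate stage its libraries ran from 319.1 to 2204 CPM, with Pot1a wt/wt 5 and fl/fl 2 and 3 lowest. In all, 7 of the 37 genes were higher in the intermediate stage in each of 9 libraries, which was not counted over all genes. Beyond the 10 called genes of largest difference, the genes given values here were chosen after these had been seen.

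Other genes that move with the cell cycle were read beside these. Of 56 further replication genes tested, 14 were called higher in the intermediate stage and 0 lower, and of 76 G2/M genes, 38 and 0. The G2/M genes took 2.919% ± 0.221 of counts in early erythroid-like and 4.401% ± 0.816 in intermediate erythroblast-like cells (n = 9 each). The depth per cell moved the other way, at a median of 3784 counts in early erythroid-like and 2344 in all 163 intermediate erythroblast-like cells. The thinned values above are again shares of a cell's counts. They cannot tell a rise of these genes from a fall in total counts per cell. The part of depth in the differences was not tested.

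**Figure D4:**
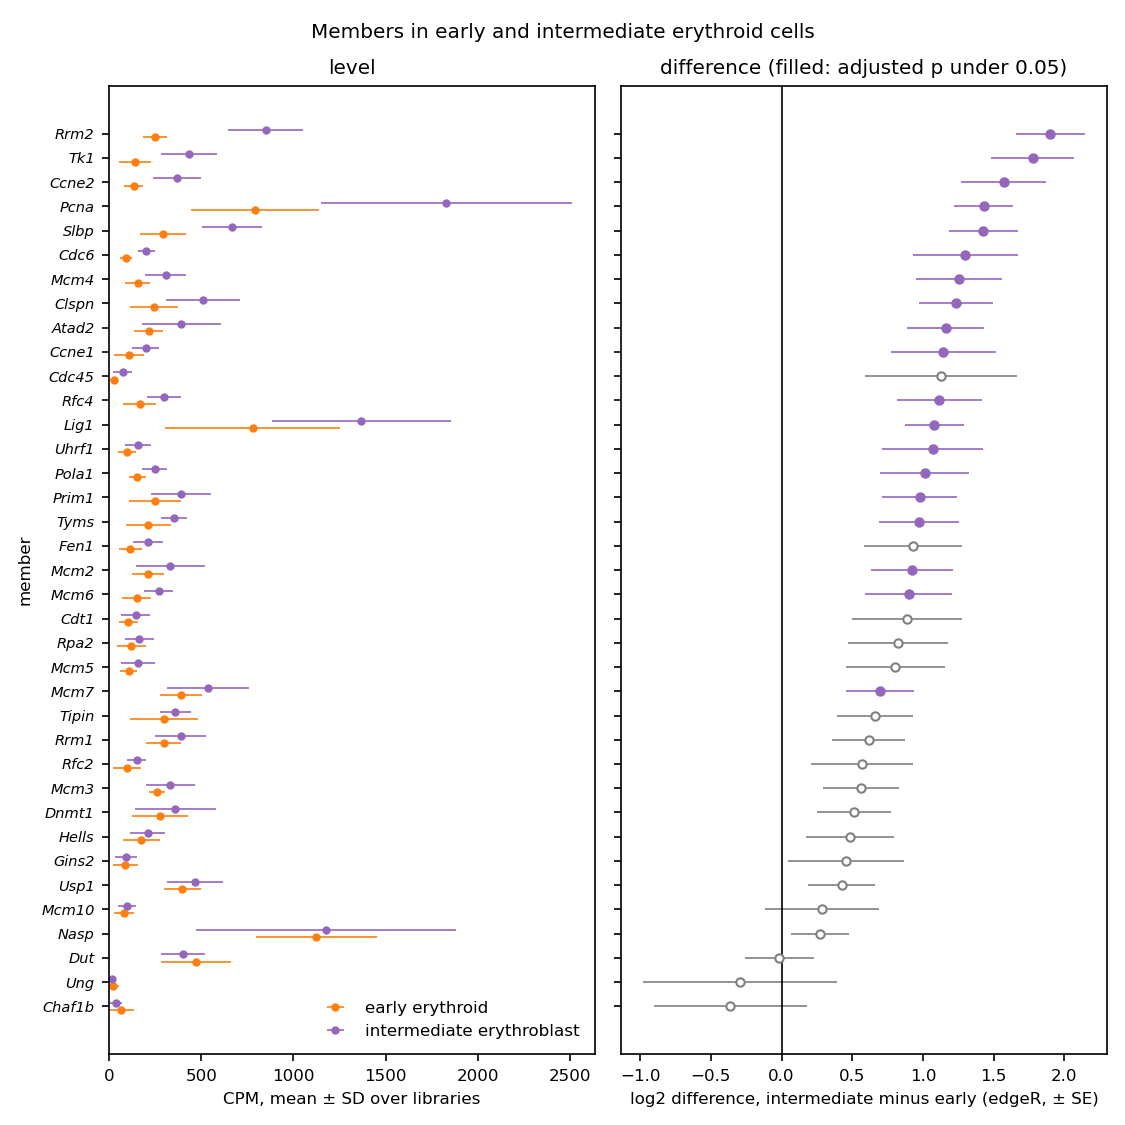
Left, level (CPM, mean ± SD over 9 libraries) of the 37 genes in early erythroid-like and intermediate erythroblast-like cells. Right, log2 difference of the same genes, intermediate minus early (edgeR, bars ± SE), where filled points have an adjusted p under 0.05: 19 genes are filled, all above 0.

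In the granulocyte stages the genes were highest in promyelocyte-like cells and near 0 in late neutrophil-like cells. The share of counts was higher in promyelocyte-like than in myelocyte-like cells in 7 of 8 libraries, with a ratio of means of 1.688. Mcm6, Mcm10, which helps start the fork, Prim1, Nasp and Dnmt1 were higher in 8 of 8. Nasp had 903.1 ± 228.4 CPM (n = 8) in promyelocyte-like and 412.9 ± 160.4 CPM (n = 9) in myelocyte-like cells. Ccne1, Ccne2 and Rrm2 were higher in myelocyte-like cells in more libraries than they were lower, in 4, 5 and 6 of 8, with Rrm2 there at 312 ± 136.9 CPM (n = 9) against 257.8 ± 132.3 CPM (n = 8). The G2/M share was also higher in myelocyte-like cells in 6 of 8. These 2 stages were not compared by a model, and such directions were not counted over all genes.

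Late neutrophil-like cells held 69626 counts in all, of which 87 came from the 37 genes: 8 of the genes were not counted at all, 22 had 1 to 3 counts and 7 had more. For a gene at 0, 3 counts is the level that a count of 0 allows, here 43.09 CPM, taken over all late neutrophil-like cells. Against that floor Hells was at least 5.36-fold higher in promyelocyte-like cells (77 counts of 333632), Prim1 at least 4.73-fold, Mcm4 at least 4.04-fold, Clspn at least 3.97-fold and Mcm5 at least 3.13-fold. Mcm3 had 85 counts in promyelocyte-like and 1 in late neutrophil-like cells, a ratio of CPM of 17.7 with a 95% counting interval of 3.10 to 709, and Dut 105 and 2 (ratio interval 2.96 to 91.7). These folds and intervals pool cells over libraries on raw totals and cover counting error only, neither the spread between libraries nor the scaling, which moved the median difference of the 37 genes from 3.12 with library totals to 2.10 with DESeq2's size factors on the log2 scale.

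The genes with most counts gave narrower intervals. Nasp had 298 counts in promyelocyte-like cells and 8 in late neutrophil-like cells, a ratio of 7.77 (3.89 to 18.2). Pcna gave 5.99 (2.86 to 15.1), Lig1 6.26 (3.13 to 14.7) and Usp1 2.82 (1.38 to 6.69). Chaf1b, the middle subunit of the histone chaperone CAF-1, had 7 and 2 counts, with an interval of 0.139 to 7.21 that leaves the direction unknown. Of the 29 genes with a count in late neutrophil-like cells, 18 had an interval above 1. These genes were chosen for display after their values had been seen.

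In the edgeR fit of library sums, 26 of the 37 genes were called higher in promyelocyte-like than in late neutrophil-like cells and 0 lower, where 14.9% of all genes were called higher and 2.49% lower. The median log2 difference was 3.54 for the 37 genes and 1.61 for all genes. With library totals and no scaling factor these medians were 3.12 and 1.23, and 18 of the 37 were called. With DESeq2's size factors, which rest on 216 genes counted in every sum, 3 of the 37 were called higher and 0 lower, with medians of 2.10 and 0.45, and the calls over all genes went from 1197 higher and 200 lower to 167 and 637. A fit of these stages alone called 7, and with Pot1a wt/wt 2 and 3 summed 27 were called, Rfc2 being lost and Cdc6 and Cdt1 gained. Of the other replication genes 24 of 56 were called higher, and of the G2/M genes 32 of 76. Late neutrophil-like cells reached 5 cells in only 4 libraries, Pot1a wt/wt 1 and 2 and fl/fl 1 and 4, and in the 3 of these that also held enough promyelocyte-like cells the share of counts from the 37 genes was lower in late neutrophil-like cells in 3 of 3.

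B-lineage cells showed nearly the same level of the 37 genes in both stages, and a difference between G2/M genes. The share of counts was 1.008% in pro-B-like and 1.037% in pre-B and immature B-like cells, with the former higher in 5 of 9 libraries. The G2/M share was 4.022% ± 0.596 and 6.043% ± 1.013 (n = 9 each), higher in pre-B and immature B-like cells in 9 of 9 libraries. By edgeR 0 of the 37 genes were called in either direction, against 2.87% of all genes higher and 2.64% lower in pro-B-like cells, while 19 of 76 G2/M genes were called lower and 1 higher. Among the 37, 4 had an unadjusted p under 0.05 and DESeq2 called 1. That gene was Rrm2, which ran from 0 through 217 to 341.5 CPM in pro-B-like cells and from 142.7 through 357.1 to 644.7 CPM in pre-B and immature B-like cells (log2 difference, pro-B minus pre-B, -0.83 ± 0.28, adjusted p = 0.0504 in edgeR). The ranges overlap, and the level was higher in pre-B and immature B-like cells in 8 of 9 libraries. Rrm2 lay at the threshold: it was called when Pot1a wt/wt 1 or fl/fl 2 was left out, and not when any other library was. Of 56 other replication genes, 2 were called higher and 2 lower.

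Between the early stages of different lineages few of the 37 genes were called. Pro-B-like against early erythroid-like cells gave 1 gene higher and 0 lower, with 5.67% and 5.78% of all genes called in those directions. The gene was Hells, which ran from 99.06 through 394.2 to 622.3 CPM in pro-B-like and from 35.02 through 165.2 to 318.2 CPM in early erythroid-like cells, with ranges that overlap. It was higher in pro-B-like cells in 9 of 9 libraries (log2 difference 1.22 ± 0.30, adjusted p = 0.000935, edgeR). Without Pot1a wt/wt 5, Pcna was called higher too.

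Promyelocyte-like against early erythroid-like cells gave 0 higher and 2 lower, with 9.14% and 5.84% of all genes called. Ccne1 ran from 0 through 9.16 to 83.03 CPM in promyelocyte-like cells and from 0 through 114.2 to 242.4 CPM in early erythroid-like cells (log2 difference -2.17 ± 0.58, adjusted p = 0.00292, edgeR), and was lower in promyelocyte-like cells in 7 of 8 libraries. Rrm1 ran from 0 through 164.7 to 226.5 CPM and from 139 through 280.9 to 424.2 CPM (-0.99 ± 0.32, adjusted p = 0.0164, edgeR), lower in 6 of 8. The ranges of both genes overlap between the stages. The call of Rrm1 was lost without Pot1a wt/wt 2, without wt/wt 3 and with these 2 summed as 1 library. With stages from each cell's own markers neither was called, and Atad2 and Cdc45, which joins the helicase at firing, were called higher.

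The last comparison was between genotypes, and it asks whether loss of Pot1a in niche cells went with a change of replication genes in marrow cells. No gene of the 37 was called in whole marrow, in B-lineage cells, in granulocyte cells or in erythroid cells. In sums over whole marrow, fewer cells of a stage and less RNA per cell cannot be told apart. The stage with the largest share of counts from the 37 genes, intermediate erythroblast-like, held 21 to 24 cells in each wt/wt library and 7 to 18 in each fl/fl library (110 and 53 in all), without overlap, and the part of this in the whole-marrow values was not tested. The 37 genes took 0.930% ± 0.146 of counts in Pot1a wt/wt (0.791%, 1.044%, 1.047%, 1.015% and 0.750% in libraries 1 to 5) and 0.789% ± 0.184 in Pot1a fl/fl (0.920%, 0.642%, 0.620% and 0.973% in libraries 1 to 4). The groups overlap, and so did the ranges of each of the 37 genes taken singly. Such overlap was not counted over all genes. The 4 libraries with the fewest counts, Pot1a wt/wt 1 and 5 and fl/fl 2 and 3 (119459 to 281068), were also the 4 with the lowest share, against 306568 to 465277 counts in the rest, and the part of depth in the shares was not tested.

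For each role the most counted gene is given in every library. Mcm7 of the licensing genes had 310, 365.3, 299, 323.8 and 320.9 CPM in the wt/wt libraries 1 to 5 and 328.8, 284.6, 401.8 and 348.9 CPM in fl/fl 1 to 4. Clspn of the fork genes had 202.7, 375.1, 418.1, 365.4 and 132.5 CPM in wt/wt and 322.4, 153, 242.8 and 338.5 CPM in fl/fl. The spread of Clspn within a genotype was larger than that of Mcm7, and in both the groups overlap. Pcna of the synthesis genes had 977.7, 1236, 1318, 1049 and 669.7 CPM in wt/wt and 965, 576.4, 343.2 and 1101 CPM in fl/fl. Rrm2 of the nucleotide genes had 397.4, 303.4, 347.9, 418.8 and 334.9 CPM in wt/wt and 363.2, 291.7, 309.7 and 432.2 CPM in fl/fl. Nasp of the chromatin genes had 715.4, 1187, 1334, 1156 and 516.2 CPM in wt/wt and 1115, 633.3, 569.2 and 1044 CPM in fl/fl. Pcna was lowest in fl/fl 3 and then in fl/fl 2, whereas both the highest and the lowest Rrm2 level were in fl/fl libraries and both the highest and the lowest Nasp level in wt/wt libraries.

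**Figure D5:**
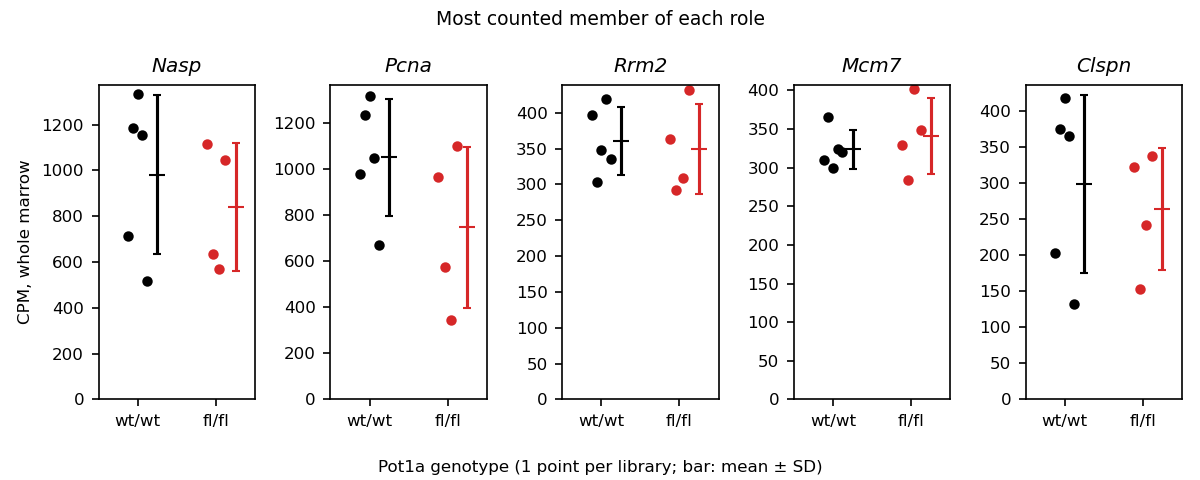
CPM in whole marrow of the most counted gene of each role, with 1 point per library (black, 5 Pot1a wt/wt; red, 4 Pot1a fl/fl) and bars at the mean ± SD. In each panel the points of both genotypes overlap.

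By edgeR over 4559 genes in whole marrow, 36 of the 37 genes passed the filter on low counts and 0 were called, where 0.0658% of all genes were called higher in Pot1a fl/fl and 0% lower. The median log2 difference, fl/fl minus wt/wt, was -0.16, with 30 of 36 below 0, against -0.001 and 2287 of 4559 over all genes. The smallest p among the 37 was that of Mcm2 (-0.57 ± 0.29, adjusted p = 0.639, edgeR). In B-lineage cells 0 of 35 genes were called (0.0226% of all genes higher and 0% lower), 26 were above 0 and the median was 0.16. Over all genes there, 2102 of 4416 were above 0 and the median was -0.03. Pola1, the catalytic subunit of polymerase alpha, was the only gene of the 35 with an unadjusted p under 0.05 (0.81 ± 0.35, adjusted p = 0.998, edgeR). In granulocyte cells 0 of 34 were called (0.0217% of all genes in each direction), with a median of 0.01. In erythroid cells 0 of 36 were called (0% in either direction), with 28 below 0 and a median of -0.19, against 2601 of 4918 and -0.03 over all genes. Among the 37, the number with an unadjusted p under 0.05 was 0 in whole marrow, granulocyte and erythroid cells, and DESeq2 called 0 in each of the 4 comparisons. Of the other replication genes tested, 0 were called in any of the 4.

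Most signs thus differed between B-lineage and erythroid cells. They moved with single libraries: without Pot1a wt/wt 1, 20 of 35 genes were above 0 in B-lineage cells and 15 of 36 in erythroid cells. The difference between these lineages was itself tested after the values had been seen, as 1 of 3 such comparisons of lineages. In the edgeR fit with a term for genotype by lineage, 29 of 37 genes had a more positive genotype difference in B-lineage than in erythroid cells, with a median of 0.24 against -0.02 over all genes. None of the 37 was called and 0 had an unadjusted p under 0.05, where 0.051% of 7848 genes were called higher and 0.0382% lower. Granulocyte against erythroid cells called 0 of the 37, with 3 at an unadjusted p under 0.05, where 0% of all genes were called higher and 0.0637% lower and 423 of 7848 had such a p. B-lineage against granulocyte cells called 0 with 1 at that p, where 0.0765% and 0.0255% of all genes were called and 418 had such a p. DESeq2 was not run on these.

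By stage, the genotypes lay apart in the share of counts from the 37 genes in early erythroid-like cells, with no overlap between 1.291%, 0.942%, 0.954%, 0.966% and 0.927% in the wt/wt libraries 1 to 5 and, for the fl/fl libraries 1 to 4, 0.868%, 0.546%, 0.709% and 0.847%. The other replication genes lay apart there as well, at 0.685% to 0.812% in wt/wt and 0.508% to 0.655% in fl/fl, and they also did so in promyelocyte-like cells, at 0.640% to 0.731% and 0.508% to 0.596%, where the 37 genes overlapped. The G2/M genes overlapped in early erythroid-like cells, at 2.682% to 3.269% in wt/wt and 2.56% to 3.022% in fl/fl. In intermediate erythroblast-like cells the shares of the 37 genes were 1.396%, 1.825%, 1.757%, 1.688% and 0.920% in wt/wt 1 to 5 and 1.615%, 0.988%, 1.162% and 1.716% in fl/fl 1 to 4. Those groups overlap, the 4 libraries with the fewest counts again being lowest, and in the remaining stages the ranges of the 37 genes overlap too. The early erythroid-like cells numbered 63 in Pot1a wt/wt (5, 15, 19, 15 and 9 in libraries 1 to 5) and 34 in fl/fl (6, 8, 14 and 6 in libraries 1 to 4). These sums were singled out after they had been seen and have no test of their own. In early erythroid-like cells thinned to 500 counts, the share of cells with at least 5 counts of the 37 genes overlapped between the genotypes. It was 60%, 60%, 36.84%, 60% and 66.67% in wt/wt 1 to 5 and 50%, 0%, 40% and 50% in fl/fl 1 to 4. Pooled over libraries it was 53.97% of 63 Pot1a wt/wt cells and 33.33% of 30 fl/fl cells. The 95% Clopper-Pearson intervals, 40.94 to 66.61% and 17.29 to 52.81%, overlap. They cover counting error only and leave out the spread between libraries.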

How the data were processed

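For each gene and each cell barcode the deposited tables give whole-number counts, with 100 barcodes in each of 9 libraries. Per the labels and the study's methods the authors aligned NextSeq reads to mm10 with STAR and counted them with the Drop-seq software (versions not given in the sources used here). Reads are named as the counted unit in the methods, and it is not stated if the deposited counts are of molecules; they were treated as molecules (UMIs). Depth ran from 119459 to 465277 counts per library, which limits precision for genes with few counts. How the 100 barcodes were chosen is not stated.

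Barcodes with at least 200 counts and at most 25% mitochondrial counts were kept. Libraries were joined and clustered with Seurat 5.3.0 (2000 variable genes, 20 components, resolution 1), and a cluster took the stage with most markers among its 50 leading genes, at least 3. A tie between stages was settled by a rule added after it had been seen. A single clustering moved with rounding, so, as a choice made after that was seen, it was repeated 21 times over library orders and seeds, and each cell took its majority stage; the alternative with all variable genes used 9 clusterings. Scrublet in scanpy 1.11.5 marked 39 doublets, which stayed in except in an alternative. Counts were summed per library and lineage, or per library and stage with at least 5 cells, and tested with edgeR 4.0.16 (TMM scaling, quasi-likelihood, Benjamini-Hochberg over all genes tested); stage fits held all stages with the library as a block. DESeq2 1.42.0 was an alternative. Values in every library are given for the most counted gene of each role, and values for the 10 called genes of largest difference in a stage comparison; other genes were named with values after these had been seen. The 37 genes and the lists beside them were chosen with earlier results of these data known. The scripts were tested on simulated data.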

Additional observations from a re-analysis of the deposited data

Results flagged for a closer look

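In 36 groups of 4 or more libraries, the share of counts from the 37 replication genes, by stage and by genotype, or the level of a leading gene was examined for a library that stands apart, and 1 did; chance gives about 1 in 20 groups. In early erythroid-like cells Pot1a wt/wt 1 had 1.291% of its counts from the 37 genes, where the nearest of the other wt/wt libraries had 0.966%. The value of Pot1a wt/wt 1 rests on 5 cells and 16500 counts, the fewest of any library in that stage. Why this library stands apart was not tested.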

How the results depend on the processing

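The 0 calls among the 37 genes in the 4 genotype comparisons held under each alternative run, leaving out each library in turn included (0 to 0). With replicate number as a block they were also 0 in each. The departures of same-numbered libraries from their group means correlated at -0.163 to 0.0097 in whole marrow, and at 0.076 for replicate 1 in erythroid cells. Whether the numbers pair the libraries is not stated, and correlations taken over all genes cannot settle it. For the stage comparisons the calls among the 37 genes moved as follows, and the causes were not tested. Pro-B-like against pre-B and immature B-like gave 1, Rrm2, in a fit of these stages alone, with DESeq2, with its size factors, with library totals, with doublets removed and with a single clustering, and 0 to 1 leaving out libraries. Promyelocyte-like against late neutrophil-like gave 7 in a fit of these stages alone, 3 with DESeq2 and with its size factors, and 23 to 25 leaving out any of 5 libraries; the 4 that hold the late neutrophil-like cells could not be left out. Early against intermediate gave 9 with at least 10 cells per sum and 14 (without Pot1a fl/fl 1) to 20 leaving out libraries. Pro-B-like against early erythroid-like gave 2 in a fit of these stages alone, with library totals and with doublets removed, 4 with own markers and 1 to 2 leaving out libraries. Promyelocyte-like against early erythroid-like gave 5 with at least 10 cells per sum, 1 with the libraries sharing barcodes summed and 1 to 3 leaving out libraries. A comparison of intermediate with globin-rich erythroblast-like cells was planned and not run, since no majority stage had that name. Sums of at least 10 cells for the late neutrophil and pro-B-like comparisons, and own markers for late neutrophil-like cells, could not be fitted. Library totals, barcode-sharing libraries summed and the single clustering were chosen after seeing the data. At 500 counts, 94.74% of pro-B-like, 89.23% of pre-B and immature B-like and 72.9% of myelocyte-like cells held a count of the 37 genes. So did 98.92% of early erythroid-like and 93.83% of intermediate erythroblast-like cells. At 1000 counts the share was 98.23% of pre-B and immature B-like, 81.2% of myelocyte-like, 100% of early erythroid-like and 97.26% of intermediate erythroblast-like cells. With no thinning the 5 stages gave 98.95, 96.27, 88.39, 100 and 98.77%. Late neutrophil-like cells, set as the background above, gave 47.73% at 500 counts, 58.33% at 1000 and 61.36% with no thinning.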
